A study of Mus musculus with 4 samples.

Results

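The genes described are 31 genes of cholesterol and fatty acid synthesis in adenomas of ApcMin mice, out of 17762 genes listed in at least 1 library. They were chosen by name: the enzymes that lead from acetyl-CoA to cholesterol, the SREBP factors with the proteins that hold or release them, and the enzymes that make and desaturate fatty acids. All 31 were listed in each of the 4 libraries, and all 31 passed the filter on low counts. Polyadenylated RNA was sequenced from 2 libraries of ApcMin mice with wild-type Strap (WT) and 2 of ApcMin mice labelled Strap KO (KO), which the series design names StrapIEKO. Both groups carried ApcMin, a truncating Apc allele that causes intestinal adenomas, on a C57BL/6 background, and were 110 days old. The promoter or cell type that drives the deletion, and whether each library is 1 animal or a pool, could not be read from the labels.

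Cells make cholesterol from acetyl-CoA through mevalonate, farnesyl diphosphate, squalene and lanosterol, and they make fatty acids from the same acetyl-CoA through malonyl-CoA and palmitate. When sterol in the endoplasmic reticulum is low, Scap carries the SREBP precursors to the Golgi, where they are cut, and the freed factors switch on most genes of both pathways. When sterol is plentiful, the Insig proteins hold the Scap and SREBP complex back. The small intestine is one of the main sites of cholesterol synthesis in the body, and crypt cells need new membrane lipid to divide.

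The libraries were close in depth, with total expected counts from 14084814 to 15640931. Strap stood at 157 and 112 CPM (counts scaled to a common library size with TMM factors) in WT replicates 1 and 2 and at 20.5 and 24.8 CPM in KO. The tissue is labelled colon adenoma, yet Car1 was at most 4.22 CPM and the colon genes Aqp8, Hoxb13, Hoxd13 and Insl5 were at most 0.834 CPM, while the small-intestinal gene Sis lay between 1969 and 4707 CPM. Genes of segments of the small intestine differed between the libraries. Fabp6, a gene of the ileum, was at 422 and 2453 CPM for WT versus 894 and 118 CPM for KO, Slc10a2, also of the ileum, at 84.9 and 259 versus 70.1 and 11.4 CPM, and Gata4, of the upper small intestine, at 134 and 27.3 versus 156 and 165 CPM. Xist was high in the replicates 1 (968 CPM for WT, 197 CPM for KO) and at most 0.954 CPM in the replicates 2, and the Y-linked gene Ddx3y was listed in the replicates 2 alone, so the replicate number and this X and Y pattern cannot be told apart. WT replicate 1 had the highest sums of the endothelial and fibroblast lists. For the 4 endothelial genes the sum was 41.3 CPM there and between 1.23 and 2.25 CPM elsewhere. Most of it was Cdh5, at 35.6 CPM, and Vwf gave 4.81 CPM. Kdr was at most 0.321 CPM, and Pecam1 was highest in KO replicate 2, at 1.29 CPM versus 0.513 CPM in WT replicate 1. The endothelial genes thus did not share 1 pattern. The 6 fibroblast genes summed to 12.3 CPM in WT replicate 1 and to between 1.43 and 2.73 CPM elsewhere. KO replicate 2 held 277 CPM of 9 T and natural killer cell genes, against 30.5 to 50.8 CPM elsewhere. The absorptive enterocyte list of 8 genes was lowest in WT replicate 2, at 8640 CPM, and at 17827 to 22806 CPM in the other 3. Epithelial genes summed to 8221 to 11842 CPM, and macrophage and smooth muscle genes to at most 9.3 and 4.88 CPM. The part of these differences in the results below was not tested, and in bulk tissue fewer cells of a type and less RNA per cell cannot be told apart.

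Promoter sequence is shown for 4 of the genes whose level was lower in both KO libraries than in both WT libraries, those with the largest difference among the ones with a match to a searched motif. Hsd17b7 is left out, because its window runs into the annotated gene. RefSeq promoters of the build GRCm38.p6 were found for 25 of the 31 genes. Fdft1, Fdps, Scd1, Scd2, Sqle and Stard4 had no entry. The motifs searched on both strands of the 250 bases before the start were the sterol regulatory element TCACNCCAC, which SREBP factors bind, the E-box CACGTG, which they can also bind, and the NF-Y box CCAAT, bound by a factor that works beside SREBP at sterol genes. No match of a motif overlaps a match of another motif in these genes. Each line gives the 180 bases before the transcript start that the RefSeq promoter table uses, which for Mvk lies just inside the annotated gene (its first base is 114444264), 5′ to 3′ on the strand of the gene, with every motif match in capitals.
Cyp51: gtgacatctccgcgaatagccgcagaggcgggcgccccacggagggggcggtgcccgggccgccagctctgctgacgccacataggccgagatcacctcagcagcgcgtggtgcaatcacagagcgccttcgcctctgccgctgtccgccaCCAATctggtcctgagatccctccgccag
Hmgcs1: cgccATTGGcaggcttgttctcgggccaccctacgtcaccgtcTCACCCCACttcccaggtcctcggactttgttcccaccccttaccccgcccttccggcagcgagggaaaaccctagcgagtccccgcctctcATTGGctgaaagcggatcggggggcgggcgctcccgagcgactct
Mvk: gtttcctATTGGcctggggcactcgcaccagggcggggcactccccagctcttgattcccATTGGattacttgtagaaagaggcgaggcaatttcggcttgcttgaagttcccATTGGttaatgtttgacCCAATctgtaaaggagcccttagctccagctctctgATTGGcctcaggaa
Idi1: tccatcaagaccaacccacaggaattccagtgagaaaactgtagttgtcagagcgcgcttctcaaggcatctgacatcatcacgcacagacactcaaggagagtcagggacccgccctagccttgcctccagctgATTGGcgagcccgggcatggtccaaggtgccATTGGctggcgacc

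The windows lie at chr5:4104698-4104877 (minus strand) for Cyp51, chr13:119690171-119690350 (plus strand) for Hmgcs1, chr5:114444089-114444268 (plus strand) for Mvk and chr13:8885426-8885605 (plus strand) for Idi1. An exact match to the letters TCACNCCAC was found in 1 of 25 genes, Hmgcs1, and in 1.22% of all 27025 genes with a promoter. In Hmgcs1 it starts 137 bases before the start. Sites that depart from these letters were not searched, so a gene without a match is not shown to lack a sterol regulatory element. The E-box was found in 5 of 25, which were Dhcr7, Hsd17b7, Insig1, Sc5d and Scap, and in 6.86% of all genes. The NF-Y box was found in 20 of 25, or 80% of them, and in 37.5% of all genes. At least 2 NF-Y boxes lay in a window of 11 of the 25 genes and of 11.5% of all genes. The NF-Y box was in 8 of the 10 matched genes with both KO libraries below both WT libraries, and in 12 of the 15 other matched genes, so it was as common in genes whose groups separated this way as in the others. Counted by window rather than by gene, 21 of 34 windows of these genes held it, against 33.8% of 32851 windows. Acaca, 1 of the 10 genes, had a single window without a match. That window (chr11:84195258-84195437) lies inside the annotated gene, which runs from 84129635 to 84401651. A match is a stretch of letters and not a measured binding site.

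Between the genotypes, most of these genes had lower levels in KO, by small amounts that did not pass the test, and Scd1 differed far more than the rest. The log2 fold change of KO over WT was negative for 26 of 31 genes and positive for 5, where 49.7% of the 12769 genes tested were negative. Its median was -0.38 over the 31 genes, with quartiles of -0.63 and -0.22, and 0.004 over all genes tested. No member passed an adjusted p of 0.05 in edgeR's quasi-likelihood test, in which 0% of all genes were called lower and 0.00783% higher. At an unadjusted p under 0.05, 6 members were lower and 0 higher, against 8.69% and 7.08% of all genes. DESeq2, the other count test run, called 4 members lower, which were Scd1, Stard4, Fdft1 and Cyp51, and 0 higher, against 3.32% and 1.82% of all genes. The KO libraries were both under the lower WT library in 14 members and both over the higher one in 2, where 24.6% and 25.5% of all genes had these orders.

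The levels were highest in WT replicate 1. It was the highest library for 24 of the 31 genes, KO replicate 1 for 4, WT replicate 2 for 2 and KO replicate 2 for 1, where the shares of all genes were 28.8%, 32.9%, 21.4% and 16.9%. The lowest library was KO replicate 2 for 19 genes, WT replicate 2 for 6, KO replicate 1 for 5 and WT replicate 1 for 1, where the shares of all genes were 19.4%, 22.1%, 29.4% and 29.1%. Summed over the 31 genes, the level was 6311 (replicate 1) and 3889 CPM (replicate 2) for WT versus 3716 and 3160 CPM for KO. The KO libraries together thus held 67.4% of the WT mean, but 88.4% of WT replicate 2 alone. Without WT replicate 1 the median log2 fold change was -0.15, and 21 members were lower and 10 higher. Between the replicates of WT the median difference was 0.44 on the log2 scale, larger than the median between the genotypes, and WT replicate 1 was above WT replicate 2 in 28 of 31 genes (49.5% of all genes). In KO, replicate 1 was above replicate 2 in 25 of 31 (53.6% of all genes), with a median difference of 0.25. The difference between the genotypes exceeded the gap between the replicates of either group in 11 genes, a count with no share of all genes beside it. Of these 10 were lower in KO (Scd1, Stard4, Fdft1, Cyp51, Hmgcs1, Mvk, Acaca, Srebf2, Nsdhl and Acly) and Ebp was higher.

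**Figure D1:**
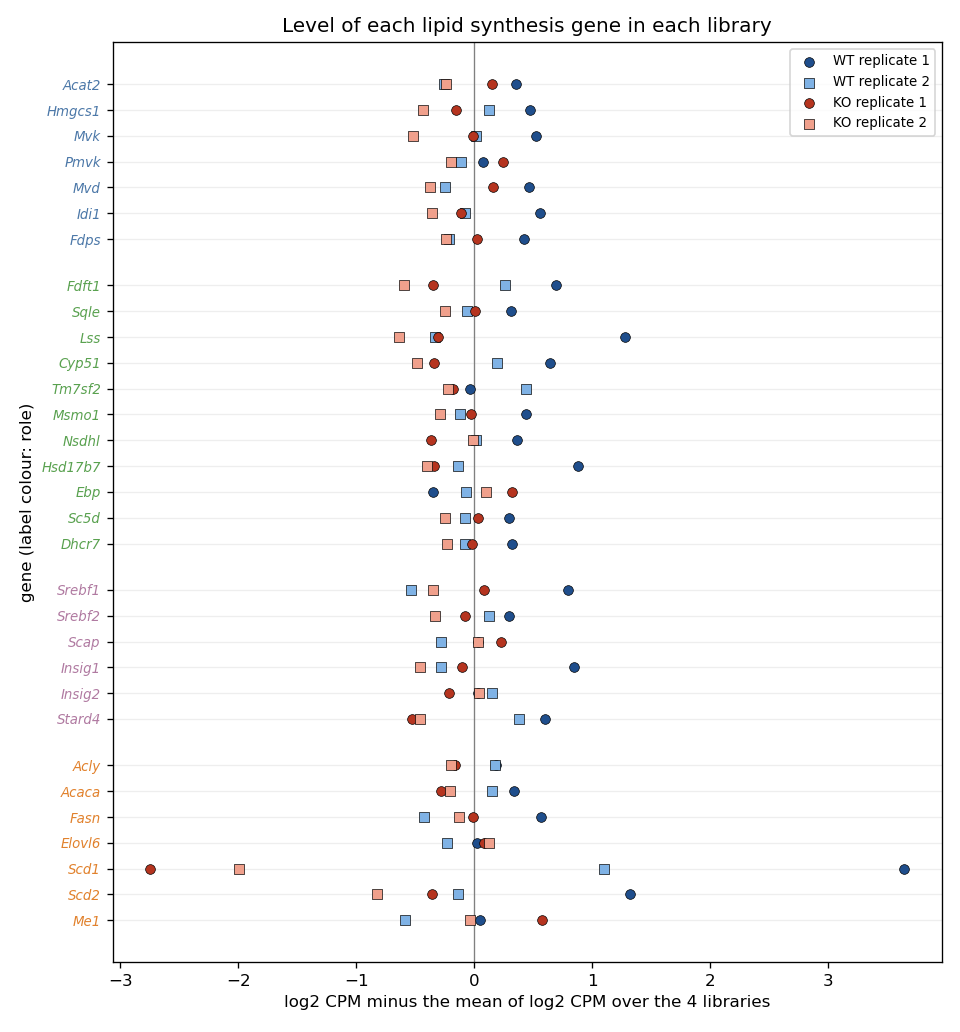
Each row is a gene and each point a library, placed at its log2 CPM minus the mean of log2 CPM over the 4 libraries; circles are replicates 1, squares replicates 2, blue WT and red KO, and label colours follow the roles (mevalonate, sterol, sensing, fatty acid). The dark blue circle of WT replicate 1 is the rightmost point in 24 of 31 rows, and Scd1 spreads far wider than any other row.

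**Figure D2:**
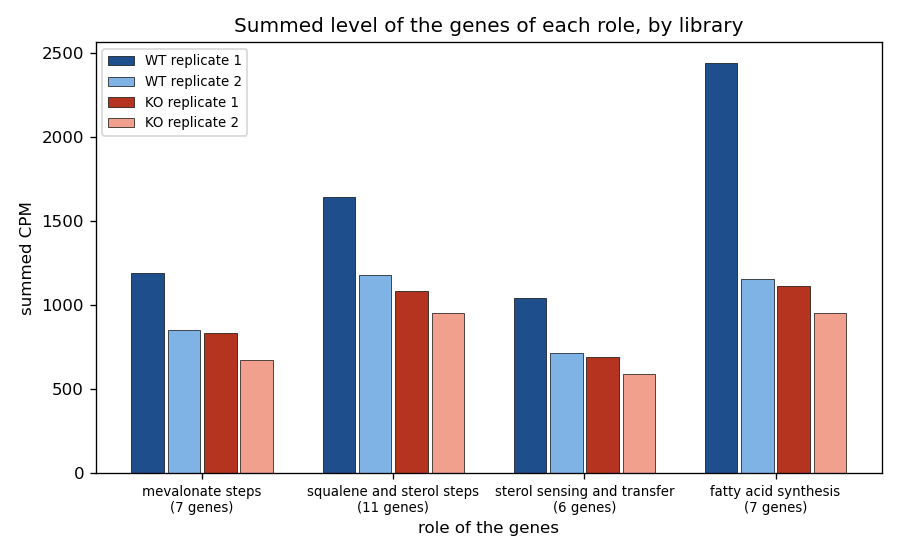
Bars give the summed CPM of the genes of each role in each of the 4 libraries, on an axis from 0. In each role WT replicate 1 is the highest bar and KO replicate 2 the lowest, and fatty acid synthesis spans 950 to 2439 CPM. Scd2 alone gives 1507 CPM of the highest bar, and without it the other 6 genes of that role sum to 932 and 604 CPM for WT and 641 and 611 CPM for KO.

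The stearoyl-CoA desaturases, which put the double bond into stearate and palmitate, had the largest differences. Scd1 lies on chromosome 19 from 44394450 to 44407709 (GRCm38.p6, as are all positions given), and it was at 126 (replicate 1) and 21.6 CPM (replicate 2) for WT versus 1.5 and 2.52 CPM for KO, from expected counts of 1970, 333, 22 and 37. Both KO libraries were far below both WT libraries, and the WT libraries were also far apart, by 5.85-fold. The KO mean was 2.72% of the WT mean, 2.01 ± 0.72 CPM against 74 ± 74.1 CPM (SD, n = 2 libraries per group). The log2 fold change was -5.19 (SE 0.93), with an adjusted p of 0.144 in edgeR and 3.75e-10 in DESeq2. Without WT replicate 1 it was -3.44 (adjusted p = 0.124 in edgeR), and without WT replicate 2 it was -5.95 (adjusted p = 0.00164). In both of these fits the lone WT library is assumed to vary like the KO libraries, although the WT libraries differed more.

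Scd2, another form of the enzyme, which also lies on chromosome 19, from 44293676 to 44306864, was at 1507 and 548 CPM for WT versus 469 and 339 CPM for KO. WT replicate 1 stood well above the other 3 libraries, which lay between 339 and 548 CPM. The log2 fold change was -1.35 (SE 0.51, adjusted p = 0.297), and -0.45 without WT replicate 1. Per length of transcript Scd2 was the most abundant of the 31 genes, with a mean over the libraries of 133 FPKM, and Scd1 the least abundant, with 8.01 FPKM. In WT the FPKM of Scd2 was 282 and 102 and that of Scd1 26.6 and 4.56, and in KO Scd2 was at 81.2 and 65.5 FPKM and Scd1 at 0.29 and 0.55. The remaining desaturase genes of this cluster, named after their values were seen, were near 0, with Scd3 at most 0.642 CPM and Scd4 at most 0.954 CPM. Of all 100-base stretches of annotated Scd1 transcripts 2.58% also occur in another gene, and of Scd2 0.879%. Scd1 is also a gene of fat cells. Of the 7 adipocyte markers Adipoq, Plin1, Lep and Retn were listed in no library, Fabp4 and Cfd were at most 0.192 CPM, and Cidec was at 41.1 and 6.42 CPM for WT versus 28.6 and 17.2 CPM for KO.

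The enzymes that build the fatty acid chain differed less. Acly, which makes cytosolic acetyl-CoA from citrate, was at 162 and 161 CPM for WT versus 127 and 124 CPM for KO. Acaca, the acetyl-CoA carboxylase that makes malonyl-CoA, was at 116 and 102 CPM for WT versus 75.7 and 79.7 CPM for KO. In both genes the replicates lay close together and the groups did not overlap, with log2 fold changes of -0.37 (SE 0.19, adjusted p = 0.405) and -0.49 (SE 0.19, adjusted p = 0.306). Fasn, the synthase that assembles palmitate, was at 343 and 173 CPM for WT versus 231 and 213 CPM for KO. Both KO libraries lay between the WT libraries, so Fasn had no common direction (-0.22, SE 0.35). Elovl6, which lengthens palmitate to stearate, was at 146 and 122 CPM for WT versus 152 and 156 CPM for KO, slightly higher in KO without overlap (0.20, SE 0.20, adjusted p = 0.669). Me1, the malic enzyme that supplies NADPH for the synthesis, was at 37.4 and 24.1 CPM for WT versus 53.7 and 35.3 CPM for KO. Its difference was positive (0.53, SE 0.32, adjusted p = 0.458), its groups overlapped, and leaving out 1 library moved it between 0.21 (without KO replicate 1) and 0.87 (without WT replicate 1).

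The squalene and sterol steps were lower in 10 of 11 genes, with a median log2 fold change of -0.38, and the KO libraries were both under the lower WT library in 5. Without WT replicate 1 the median was -0.15, with 10 of 11 lower. Of these, Sqle (-0.07), Dhcr7 (-0.06), Msmo1 (-0.05) and Sc5d (-0.04) then hardly differed. Fdft1, squalene synthase and the first enzyme committed to sterols, lies on chromosome 14 from 63145150 to 63181687. It was at 202 and 149 CPM for WT versus 97.6 and 82.3 CPM for KO. The groups were well separated, and the KO mean was 51.1% of the WT mean. Its log2 fold change was -0.97 (SE 0.24), with an adjusted p of 0.211 in edgeR and 0.0166 in DESeq2. Cyp51, the lanosterol demethylase on chromosome 5 from 4080674 to 4104697, was at 299 and 219 CPM for WT versus 152 and 137 CPM for KO, again without overlap. Its log2 fold change was -0.84 (SE 0.25, adjusted p = 0.244 in edgeR and 0.0389 in DESeq2), and 55.8% of the WT level was left. Without WT replicate 1 the values of Fdft1 and Cyp51 were -0.75 and -0.62.

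Lss and Hsd17b7 had differences as large, but they rested on WT replicate 1. Lss, which closes squalene epoxide into lanosterol, was at 161 and 52.8 CPM for WT versus 53.6 and 42.5 CPM for KO, so WT replicate 2 lay among the KO libraries (-1.15, SE 0.51, adjusted p = 0.34). Hsd17b7, a sterol ketoreductase, was at 84.7 and 41.9 CPM for WT versus 36.3 and 34.9 CPM for KO (-0.83, SE 0.35, adjusted p = 0.327). Its groups did not overlap, but WT replicate 2 was close to KO. Without WT replicate 1 the log2 fold change was -0.15 for Lss and -0.25 for Hsd17b7. Ebp, the sterol isomerase, was the 1 gene of these steps with a higher level in KO, at 73.2 and 88.6 CPM for WT versus 116 and 99.7 CPM for KO (0.41, SE 0.21, adjusted p = 0.394), with no overlap.

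The other genes of these steps differed by less than 0.5 on the log2 scale. Sqle, squalene epoxidase, was at 215 and 166 CPM for WT versus 174 and 146 CPM for KO. Msmo1, which removes methyl groups from the sterol ring, was at 255 and 173 CPM for WT versus 184 and 154 CPM for KO. In both genes KO replicate 1 was above WT replicate 2 and KO replicate 2 below it. Sc5d, a sterol desaturase, was at 124 and 95.5 CPM for WT versus 103 and 85.2 CPM for KO, and Dhcr7, the reductase of the last step, at 112 and 85.1 CPM for WT versus 88.7 and 76.5 CPM for KO. In both genes KO replicate 1 was above WT replicate 2. Tm7sf2, a sterol reductase, was at 22.9 and 31.9 CPM for WT versus 20.7 and 20.2 CPM for KO. Nsdhl, a sterol dehydrogenase, was at 93.5 and 73.8 CPM for WT versus 56.6 and 72.2 CPM for KO, so its groups were separated by a narrow margin. Tm7sf2 was the 1 gene of these steps highest in WT replicate 2.

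The mevalonate steps were lower in 6 of 7 genes, with a median log2 fold change of -0.24, but without WT replicate 1 in 3 of 7, with a median of 0.10. Without KO replicate 2 they were lower in 4 of 7, with a median of -0.12, and without WT replicate 2 or KO replicate 1 in 7 of 7, with medians of -0.53 and -0.52. Hmgcs1 encodes the HMG-CoA synthase, and its promoter holds the match to the sterol regulatory element shown above. Hmgcs1 was at 518 and 408 CPM for WT versus 336 and 276 CPM for KO. Its groups did not overlap, and its difference was about equal in replicates 1 (-0.62) and replicates 2 (-0.57). The log2 fold change was -0.60 (SE 0.26, adjusted p = 0.334). Mvk, mevalonate kinase, was at 49.3 and 34.6 CPM for WT versus 34 and 23.9 CPM for KO (-0.54, SE 0.28, adjusted p = 0.409). Idi1, which isomerises isopentenyl diphosphate, was at 256 and 165 CPM for WT versus 161 and 136 CPM for KO (-0.50, SE 0.28, adjusted p = 0.432). In both, KO replicate 1 was only just below WT replicate 2, and without WT replicate 1 the values were -0.28 for Mvk and -0.17 for Idi1.

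Of the other mevalonate genes none separated the groups. Mvd, which decarboxylates mevalonate diphosphate, was at 72.5 and 44.3 CPM for WT versus 58.6 and 40.4 CPM for KO. Fdps, farnesyl diphosphate synthase, was at 185 and 119 CPM for WT versus 140 and 117 CPM for KO. Acat2, the thiolase that starts the pathway, was at 76.9 and 50.4 CPM for WT versus 66.9 and 51.2 CPM for KO. In these 3 genes each replicate 1 was above each replicate 2, whatever the genotype. The same order by replicate number held in Pmvk, Sqle, Lss, Msmo1, Sc5d, Dhcr7, Insig1, Srebf1, Fasn and Me1, and narrowly in Scap. The share of all genes with this order was not counted. Pmvk, the next kinase after Mvk, was at 30.9 and 27.1 CPM for WT versus 34.8 and 25.6 CPM for KO (0.06, SE 0.24). Sharing of reads with related sequences makes some of these counts uncertain. Of the 100-base stretches of transcripts, 28.9% of Acat2 occur also in Acat3, and 21.4% of Fdps and 15.8% of Idi1 in predicted genes. Outside these steps the share was 23.7% for Acaca and 12.3% for Me1. For Tm7sf2 it was 7.92%, with stretches that occur also in Vps51.

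The genes that sense and carry sterol were lower in 5 of 6, with a median of -0.40, and without WT replicate 1 in 4 of 6, with a median of -0.13. Without WT replicate 2 the median was -0.69. Stard4, which encodes a protein that carries cholesterol between membranes, was at 176 and 151 CPM for WT versus 80.3 and 84.4 CPM for KO. Replicates were close within each group and the KO mean was 50.3% of the WT mean. The log2 fold change was -0.99 (SE 0.20), with an adjusted p of 0.173 in edgeR and 0.00197 in DESeq2, and it was -0.89 without WT replicate 1.

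Srebf2, the SREBP gene tied chiefly to cholesterol synthesis, was at 298 and 265 CPM for WT versus 230 and 193 CPM for KO, lower in KO without overlap (-0.41, SE 0.23, adjusted p = 0.423). Srebf1, tied chiefly to fatty acid synthesis, was at 259 and 103 CPM for WT versus 158 and 117 CPM for KO. Both KO libraries lay between the WT libraries, and the log2 fold change of -0.39 (SE 0.45, adjusted p = 0.695) became 0.40 without WT replicate 1. Scap, the escort of the SREBP precursors, was at 82.8 and 66.8 CPM for WT versus 94.7 and 82.7 CPM for KO (0.25, SE 0.21, adjusted p = 0.595). Insig1, whose transcription follows SREBP activity, was at 193 and 88.4 CPM for WT versus 99.7 and 78 CPM for KO (-0.66, SE 0.39, adjusted p = 0.453), so WT replicate 1 stood alone above 3 close libraries, and without it the value was -0.01. Insig2, its relative with less dependence on sterol, was at 34.7 and 37.6 CPM for WT versus 29.2 and 34.8 CPM for KO (-0.18, SE 0.21, adjusted p = 0.706). Between the WT libraries Insig1 differed 2.18-fold, Srebf1 2.51-fold and Lss 3.04-fold, with replicate 1 the higher, while Insig2 and Srebf2 differed little between these libraries.

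**Figure D3:**
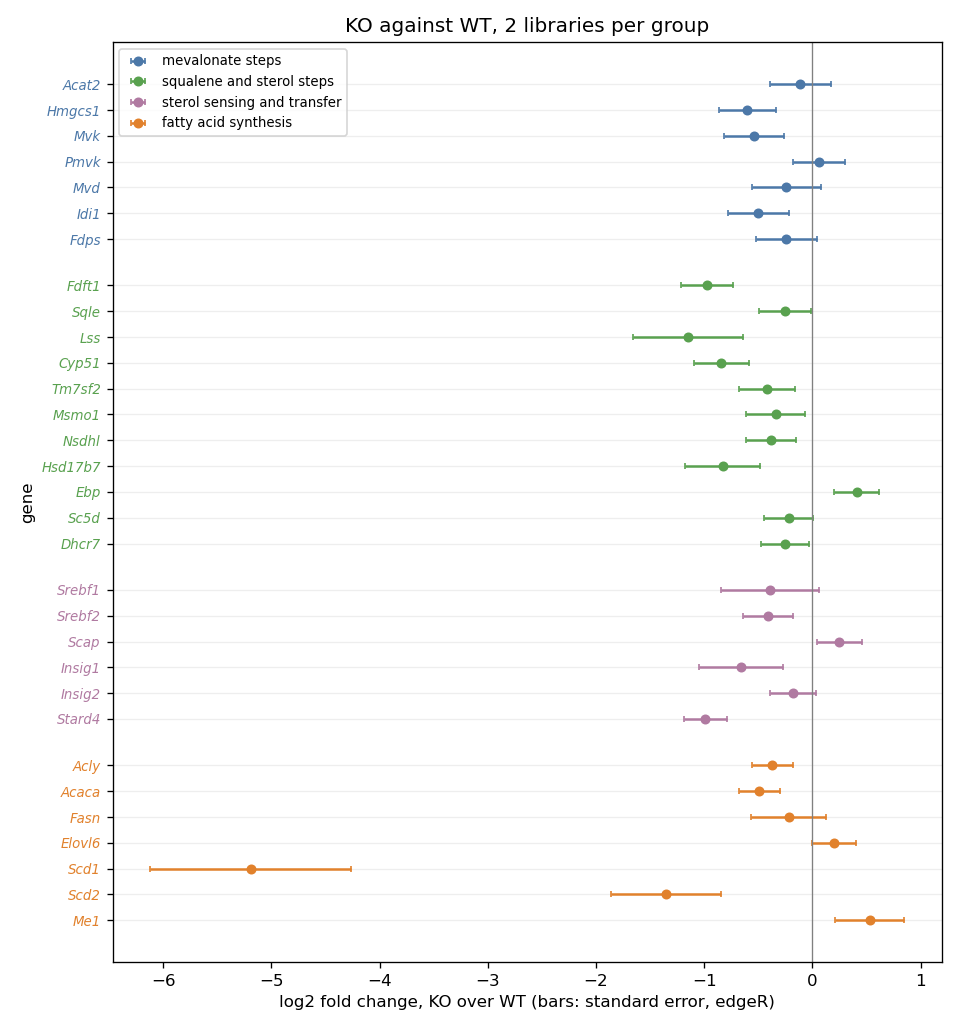
Points give the log2 fold change of KO over WT for each of the 31 genes and bars a standard error derived from the edgeR test, with colours for the roles. All but 5 points lie left of 0, most within 1 unit of it, and Scd1 lies at -5.19.

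Since each genotype held 1 library with high Xist and 1 with Y-linked transcripts, the difference was also read within each replicate number. KO was lower than WT in 26 of 31 genes between the replicates 1, with a median log2 difference of -0.47, and in 24 of 31 between the replicates 2, with a median of -0.18. It was lower in both pairs in 23 genes and higher in both in 4, where 29.6% and 30.6% of all genes were so. The 4 genes higher in both pairs were Ebp, Me1, Scap and Elovl6. The log2 difference of Scd1 was -6.39 between the replicates 1 and -3.1 between the replicates 2. The same values were -1.13 and -0.84 for Stard4, -1.05 and -0.86 for Fdft1, and -0.98 and -0.67 for Cyp51. Srebf1 and Fasn pointed in opposite ways, with -0.71 and 0.18 for Srebf1 and -0.57 and 0.30 for Fasn. Each of these differences is between 1 library and 1 library and is given as a description.

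**Figure D4:**
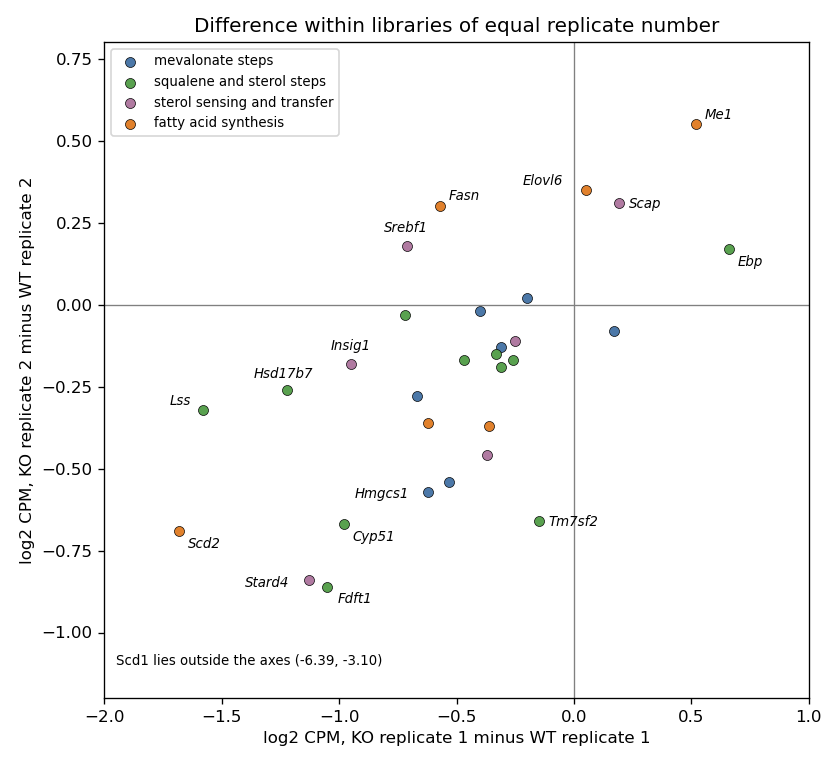
Each point is a gene, placed by its log2 CPM difference of KO minus WT between the replicates 1 (horizontal) and between the replicates 2 (vertical), coloured by role; Scd1, at -6.39 and -3.1, lies outside the axes. Of the 31 genes 23 lie in the lower left part of the plot and 4 in the upper right.

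The rest of the pathway was read from 46 further genes, of which 44 could be tested. No gene was called in edgeR in either direction, and an unadjusted p under 0.05 was reached by 4 genes with higher and 3 with lower levels (9.09% and 6.82% of those tested), near the 7.08% and 8.69% of all genes. Their median log2 fold change was -0.18, with 17 higher and 27 lower. Ggps1, which makes geranylgeranyl diphosphate, was at 21 and 20.5 CPM for WT versus 12.4 and 16.7 CPM for KO, lower in both KO libraries (-0.51, SE 0.28, adjusted p = 0.421).

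The widest differences among these further genes were in sterol esters and uptake. Soat1, which esterifies cholesterol in most tissues, was at 34.8 and 26.1 CPM for WT versus 7.72 and 10.4 CPM for KO. Soat2, the form of intestine and liver, was at 111 and 75.5 CPM for WT versus 124 and 225 CPM for KO. Neither overlapped, and they differed in opposite directions, with log2 fold changes of -1.75 (SE 0.30, adjusted p = 0.138) and 0.90 (SE 0.35, adjusted p = 0.307). Mylip, the LXR-induced ligase that degrades the LDL receptor, was at 15.6 and 14.1 CPM for WT versus 2.46 and 4.29 CPM for KO (-2.14, SE 0.41, adjusted p = 0.162). Nr1h3, which encodes the sterol-activated receptor LXR alpha, was at 35.4 and 34.8 CPM for WT versus 85.4 and 56.4 CPM for KO, higher in both KO libraries (1.01, SE 0.25, adjusted p = 0.211). The related receptor gene Nr1h2 had a log2 fold change of 0.41 (SE 0.19), and the efflux transporter gene Abcg1 -1.25 (SE 0.85). DESeq2 called Soat1 (adjusted p = 0.000245) and Mylip (0.000663) lower and Nr1h3 (0.043) higher, which is 4.55% and 2.27% of the 44 genes, near the 3.32% and 1.82% of all genes. Among uptake and ester genes 4 of 10 were higher, and among efflux and LXR genes 2 of 6.

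The genes of SREBP processing and protein turnover in the endoplasmic reticulum differed little as a list, with a median of -0.11 and 3 of 7 higher. Rnf139, a ligase gene of the endoplasmic reticulum, had a log2 fold change of 0.52 (SE 0.19) and Erlin2 -0.21 (SE 0.21). Of the remaining fatty acid and glycerolipid genes 5 of 14 were higher, with a median of -0.23. Fads1, a desaturase gene of polyunsaturated fatty acids, was at 61.6 and 51.7 CPM for WT versus 36.9 and 37.4 CPM for KO, lower in both KO libraries (-0.61, SE 0.20, adjusted p = 0.269). Acss2, which makes acetyl-CoA from acetate, had a log2 fold change of -0.44 (SE 0.18) and Gpam, the first acyltransferase of triglyceride synthesis, -0.77 (SE 0.35). The genes that supply NADPH other than Me1 differed by 0.35 (SE 0.28) for Pgd, -0.27 (SE 0.32) for Idh1 and 0.14 (SE 0.20) for G6pdx.

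Per length of transcript, over the 4 libraries the mean was 114 FPKM for Fdps, 111 FPKM for Hmgcs1 and 108 FPKM for Msmo1, the most abundant after Scd2, and 10.4 FPKM for Acaca, 11 FPKM for Hsd17b7 and 11.7 FPKM for Me1, the least abundant after Scd1. Of the 31 genes 30 had at least 100 expected counts in every library, and Scd1 was the exception.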

How the data were processed

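Per the file headers, each of the 4 deposited tables gives RSEM expected counts per gene for 1 library. The tables also hold deposited FPKM values, which scale counts by transcript length and library size. Per the submitters' processing notes, Bowtie2 2.2.5, RSEM 1.2.12 and the build mm10 were used, with no role or order given. No label states whether counting used strand. If it did not, genes that overlap on opposite strands cannot be told apart. Only genes with an FPKM of at least 0.01 are listed.

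Tables were joined on Entrez identifiers (pandas 2.3.3), date-like symbols were restored by identifier (25), and 1 row without a gene per library, at most 0.000233% of the counts, was left out. Expected counts were rounded and fitted over all 4 libraries by the quasi-likelihood test of edgeR 4.0.16 (R 4.3.3), with genotype alone, TMM scaling (factors 0.9365 to 1.043), filterByExpr (12769 genes) and Benjamini-Hochberg adjustment over all genes tested. An SD is over 2 libraries per group. An SE was derived from the log2 fold change and the statistic of the edgeR test, whose variance is drawn in part from other genes. The labels do not say that libraries are separate animals, and p-values then cover only library-to-library spread, which may be technical. Alternatives were other scalings and filters, DESeq2 1.42.0, limma 3.58.1 on log2 FPKM with a pseudocount of 1 or 0.1, computed here from the authors' deposited FPKM, the replicate number as a block, and leaving out each library. The test was also run on counts simulated from its own estimates of spread. That run held no outlying library, so it cannot show how the test behaves with one.

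The genes and lists were chosen with earlier results of these data known. All 31 are named. Full statistics were given for up to 10 with the largest difference, up to 10 with the smallest p, and the SREBP, Scap and Insig genes. From each further list up to 3 genes with the smallest p were named, and some of these are not reported here. Coordinates are from the RefSeq annotation GRCm38.p6, the build that mm10 denotes. Shared stretches of 100 bases were counted in GENCODE M21 transcripts.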

Additional observations from a re-analysis of the deposited data

How the results depend on the processing

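The direction of the members held in most alternatives: 26 members were lower in each of the 8 that kept all libraries, with a median log2 fold change from -0.41 to -0.36, and 25 of 31 members kept their sign in all 12. Over all genes edgeR called 1 gene higher and 0 lower, against 233 and 424 with DESeq2, 0 and 0 with library size alone and with limma at either pseudocount, and 19 and 8 with no filter. DESeq2 called 4 members lower. With the replicate number as a block 46 genes were called higher, 70 lower and 1 member lower, Scd1 (log2 fold change -4.71, adjusted p = 0.0308). The labels do not say that equal numbers share an animal or day, and the deviations of same-numbered libraries correlated by -0.13 over all genes tested. Crossed numbers, chosen after seeing the data, gave 65 genes higher, 99 lower and 1 member lower. Leaving out each library gave 0 to 72 genes called higher, 0 to 300 lower and 0 to 2 members called lower (Scd1 and Lss, both without WT replicate 2, where the spread comes from the KO libraries alone). It gave 4 to 10 members higher and a median from -0.53 to -0.15. Every KO library was lower than every WT library in 15 to 25 members, and higher in 2 to 7. With all libraries 14 members were so lower in the main fit, and up to 18 in the alternatives (limma). Fewer libraries make separation easier, and no share of all genes was counted for these fits. The sign turned for 6 members: Pmvk ranged from -0.17 to 0.26, Acat2 from -0.36 to 0.21, Mvd from -0.53 to 0.15, Fdps from -0.50 to 0.10, Srebf1 from -0.89 to 0.40 and Fasn from -0.61 to 0.35. The cause was not tested. With 2 libraries per group the precision is low, and what limits it was not tested. Scd1 had 22 and 37 counts in KO, and its WT libraries differed 5.85-fold.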
